A study of Mus musculus with 18 samples.

Results

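The comparison described here is the knockdown of *Stag1* through its SATS 5′ UTR against scrambled siRNA (SCR), in serum-grown mESCs. It rests on 4 of the 18 libraries of the series, chosen by their labels: SATS siRNA and SCR in replicate set 2 and replicate set 3, 2 libraries each, with each SATS library set against the SCR library of its own set. All 4 held RNA of mouse embryonic stem cells of the male E14 line, grown in serum (FCS) and transfected for 24 h, and rRNA had been removed before library preparation. The SATS siRNA was an esiRNA, a mixture of short siRNAs made by enzyme digestion and directed to the whole SATS 5′ UTR, while SCR was a pool of scrambled siRNAs. Another 6 libraries of the same sets, with 3 other siRNAs to *Stag1* (the SmartPool SP, 3p to the 3′ end and 5p to the 5′ end), entered the fit so that all 5 groups shared 1 estimate of the spread. Untreated cells (set 2) and luciferase siRNA (set 3, also an esiRNA) had 1 library each and were used as values only. All cells came from 1 line, so the data describe that line, and neither knockdown nor transfection was measured cell by cell.

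*Stag1* encodes a subunit of cohesin, the ring-shaped complex that holds sister chromatids together and shapes chromatin loops. Each ring carries either STAG1 or its paralog STAG2. In mESCs, naive pluripotency is held by a network of transcription factors that includes *Nanog*, *Esrrb*, *Klf4*, *Tfcp2l1* and *Tbx3* and is kept up by LIF, whereas FGF signalling through ERK favours exit from that state. SATS is an alternative transcription start site far upstream of the canonical *Stag1* start, and siRNA to its 5′ UTR is directed at transcripts that begin there.

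The most upstream first exon of *Stag1* in GENCODE, taken here as the SATS exon, belongs to the transcript Stag1-205 and lies on the plus strand at chr9:100597798-100598109 of GRCm38 (mm10), 45.8 kb upstream of the first exon of Stag1-201. The exon is 312 bases long, is annotated as UTR and has a GC content of 51.6%. Its last 30 bases, at chr9:100598080-100598109, are shown because a run in them recurs in another gene that comes up below. The capitals mark 17 bases that are also found in the 3′ UTR of 4 of 17 annotated transcripts of *Csnk1g1*, at chr9:66039854-66039870.
SATS exon, last 30 bases: gtccctcgtCTGCTTCTCCACTGCTTcaag
Csnk1g1 transcript, 30 bases around the run: gagctgCTGCTTCTCCACTGCTTgcccttg

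The targeted gene was measured first, as a check of the labels. *Stag1* was at a normalised read count of 1876 in set 2 and 2113 in set 3 with SCR, and at 947 and 1051 with SATS siRNA. SATS libraries thus held 50.5% of the SCR level in set 2 and 49.7% in set 3. Both SATS libraries lay below both SCR libraries, and also below untreated cells (1619) and luciferase siRNA (2200). On the log2(value + 1) scale the difference was −0.996 ± 0.10 (SE, n = 2 sets; limma, adjusted p = 0.0013). The values are summed over the gene (chr9:100597798-100959375), so transcripts from SATS and from the canonical start could not be told apart, nor could fewer transcripts per cell from fewer expressing cells. The other siRNAs left less *Stag1*: SP left 406 and 371, 3p left 392 and 365, and 5p left 441 and 401 in sets 2 and 3. SATS libraries exceeded the mean of these 3 siRNAs by 1.33 ± 0.08 on the same scale (SE; adjusted p = 2.39e-06).

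**Figure D1:**
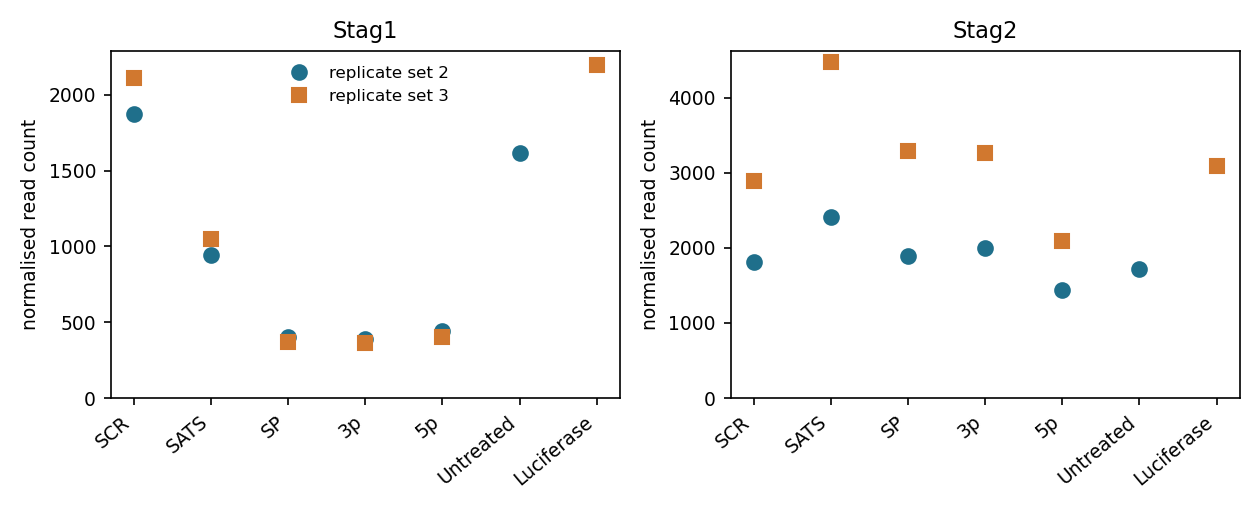
Normalised read count (y axis, starting at 0) of *Stag1* and of its paralog *Stag2* in each library of sets 2 (circles) and 3 (squares), by siRNA. *Stag1* with SATS siRNA (947 and 1051) sits between the controls and the other 3 siRNAs, and *Stag2* with SATS siRNA (2406 and 4474) is the highest of its set in both sets.

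*Stag2*, the paralog, was higher with SATS siRNA. It went from 1811 with SCR to 2406 with SATS siRNA in set 2 and from 2895 to 4474 in set 3, a rise of 0.52 ± 0.08 (adjusted p = 0.0154). The SATS library was the highest of its own set, but the groups overlapped across sets, since set 3 was higher throughout. SATS also exceeded SP by 0.39, 3p by 0.36 and 5p by 0.92 (adjusted p = 0.0136, 0.0368 and 5.93e-05). Of 15 genes of cohesin and its regulators, *Esco1* (0.50 ± 0.10, adjusted p = 0.0269) and *Esco2* (0.40 ± 0.08, adjusted p = 0.0269) rose as well. Both encode acetyltransferases that act on cohesin. Only *Stag1* was called lower. With *Stag2*, 3 of the 15 were called higher (20%, against 1.9% of all genes). The ring subunits *Smc1a*, *Smc3* and *Rad21* differed by 0.14, 0.15 and 0.05 and did not pass the test. After correction for GC content and transcript length, described below, *Stag2*, *Esco1* and *Esco2* were at 0.29, 0.28 and 0.07 and no longer passed (adjusted p = 0.0548, 0.0742 and 0.681), and *Stag1* did (−1.09, adjusted p = 1.94e-04). None of the tested protein-coding genes nearest to *Stag1*, *Nck1* and *Slc35g2* upstream and *Pccb* and *Msl2* downstream, was called, with differences of 0.25, 0.46, 0.06 and −0.03 (adjusted p = 0.163, 0.308, 0.805 and 0.874).

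Across all genes the SATS knockdown was a change of many genes by small amounts. Of 16490 genes tested, 313 were called higher and 123 lower (1.9% and 0.746%, 2.64% together; limma with the replicate set as a block, adjusted p under 0.05). The median rise was 0.52 and the median fall −0.41 on the log2 scale, and 198 of the rises and 106 of the falls were under 1.5-fold. Past 2-fold were 5 rises (*Isg15*, *Lsm5*, *Ccne2*, *Hmgn5* and *Cxcl11*) and 3 falls (*Pla2g4e*, *Fgfr4* and *9330159F19Rik*, named after their values were seen). Both SATS libraries lay above both SCR libraries in 227 of the 313, and below them in 91 of the 123, against 14.2% and 15.7% of all genes tested. The called genes were chosen by the difference between these same libraries, which favours such a separation, so these counts are a description only. Set 3 moved further than set 2, with medians over the genes called higher of 0.38 in set 2 and 0.67 in set 3, and over those called lower of −0.37 and −0.47. Across the 11019 genes whose mean normalised read count reached 50, the differences in the 2 sets correlated at r = 0.57, a description across genes that are not independent.

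The number of calls rested on single libraries and on the pairing of the sets. Without the SATS library of set 3, 2 genes were called higher and 1 lower; without the SCR library of set 2, 3 and 1; without the SCR library of set 3, 7 and 1; and without the SATS library of set 2, 611 and 111. *Stag1* was called in all 4 cases. Of the 99 genes named here that were called, *Tmem123* and *Acta2* also stayed called without SATS of set 3, *Ccne2*, *Tmem123* and *Lamp2* without SCR of set 2, and *Hmgn5*, *Gng5*, *Acta2* and *Tpm2* without SCR of set 3. Without the block, which takes up the difference between the sets, no gene was called by limma or by edgeR, with 650 genes at an unadjusted p under 0.05 in either tool. With the block, edgeR on whole reads called 410 higher and 140 lower and held 312 and 122 of the genes called here.

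**Figure D2:**
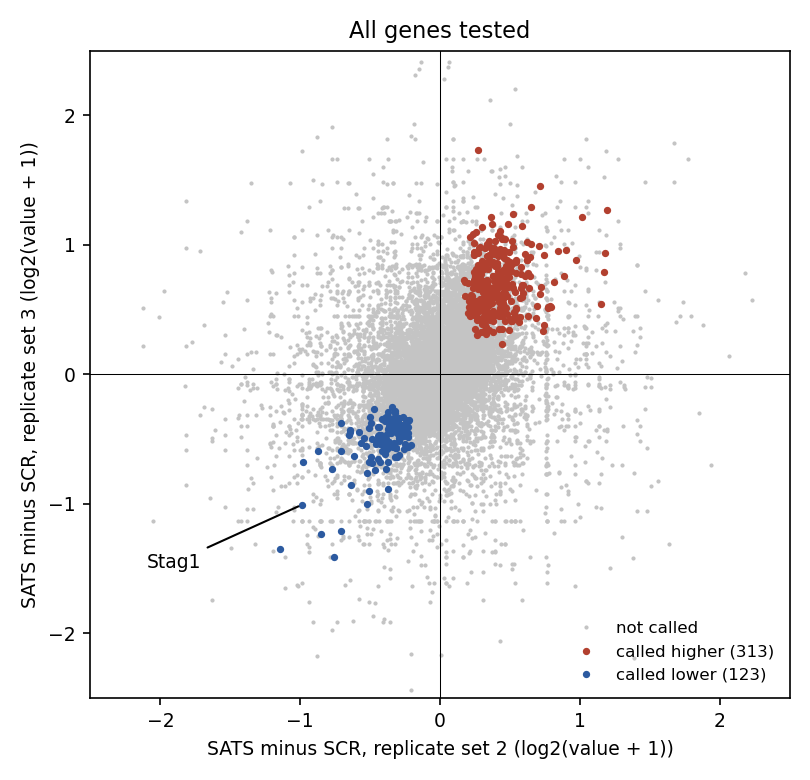
Difference between SATS and SCR in replicate set 2 (x axis) and replicate set 3 (y axis), on the log2(value + 1) scale, 1 point per gene tested; 2 genes lie outside the axes. Genes called higher (313, red) and lower (123, blue) lie in the quadrants where both sets moved the same way.

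The calls went with base composition and length of the transcripts. Genes called higher had a median GC content of 42.1% and a median length of 2660 bases, and genes called lower 52.4% and 5185 bases, against 50.1% and 3211 bases over all genes tested. In the quintile of protein-coding genes with the lowest GC content (31.0% to 43.9%), 9.25% of 2161 genes were called higher and 0.416% lower, and in the quintile with the highest, 0.602% and 1.57%. The rank correlation of the difference with GC content was −0.41 in set 2 and −0.33 in set 3, and with length −0.11 and −0.33, over 10802 genes, which share their libraries and are given as a description. The same measure for control libraries against the SCR library of their set was 0.49 with GC content for untreated cells (set 2) and −0.23 for luciferase siRNA (set 3). With each library corrected for both properties, 111 genes were called higher and 111 lower (0.679% each, 1.36% together), which held 75 of the 313 and 54 of the 123. The share of calls that were higher thus moved from 71.8% to an even split. The corrected calls still went with base composition, now among genes called lower. These had a median GC content of 45.4%, and 48.6% of them were under 45% GC, against 24.4% of all genes tested. Corrected genes called higher were at 49.2%. The median lengths were 4365 bases (lower) and 3196 bases (higher). How far base composition and length of the transcripts account for the calls was not tested beyond this correction, so the corrected result is given beside each group.

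**Figure D3:**
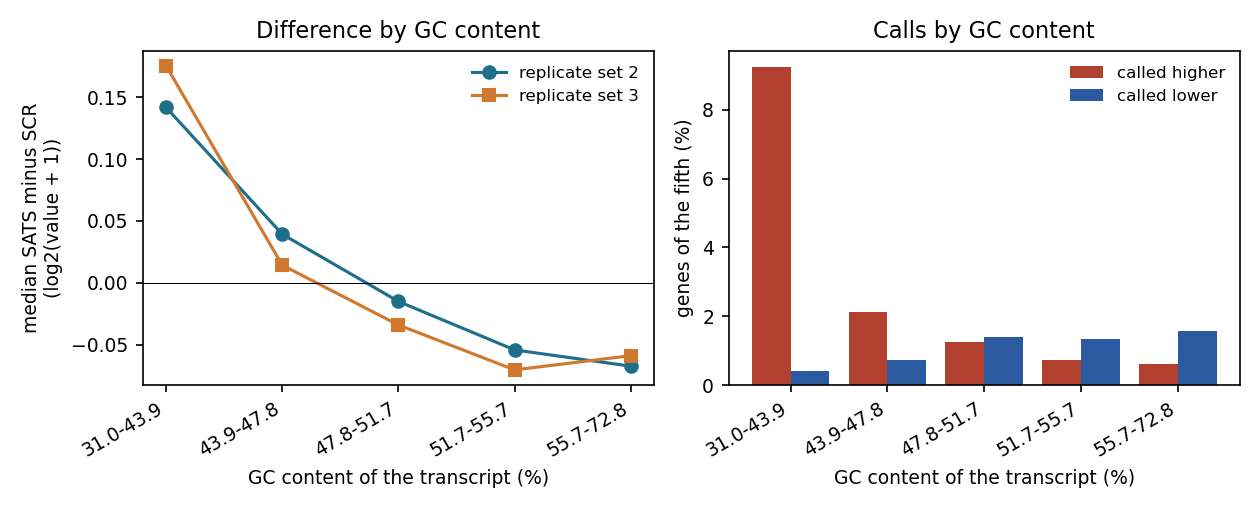
Left, median difference between SATS and SCR (y axis, log2(value + 1)) in quintiles of 10802 protein-coding genes by GC content of the transcript (x axis, %), for replicate sets 2 (circles) and 3 (squares). Right, share of each quintile called higher (red) or lower (blue), in %; the lowest quintile holds 9.25% called higher.

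Among genes with a mean normalised read count of at least 50, the 10 largest falls described here, *Stag1* first, ran from −0.996 to −0.60. Of the 10, 8 also passed with the correction. In 9 of the 10 both SATS libraries lay below both SCR libraries, against 15.7% of all genes tested. The 10 were chosen as large falls seen in both sets, which favours such a separation. *Ankrd33b* went from 186 with SCR to 93.5 with SATS siRNA in set 2 and from 109 to 67.9 in set 3, a fall of 0.83 ± 0.13. *Laptm5*, a lysosomal membrane protein, went from 468 to 325 and from 248 to 123. In both genes each SATS library lay well below the SCR library of its set, and for *Laptm5* the groups overlapped, since set 3 was lower throughout. *Chchd10*, a mitochondrial protein, went from 1468 to 1030 and from 1570 to 842 (−0.70 ± 0.12, adjusted p = 0.0190). *Vrk3*, a member of the vaccinia-related kinase family, fell by nearly the same in both sets, from 421 to 274 and from 486 to 313 (−0.62 ± 0.08, adjusted p = 0.00815), with untreated cells at 385 and luciferase siRNA at 418. *Fzd6*, a Wnt receptor, went from 168 to 102 and from 233 to 154. *Cep85l* and *Soga3* fell by 0.73 and 0.64. The chromatin remodeller *Chd5* (−0.63) and the Notch receptor *Notch4* (−0.60) were at −0.40 and −0.41 with the correction and did not pass (adjusted p = 0.128 and 0.123).

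Among genes with a mean normalised read count of at least 50 over the 4 libraries, the 12 largest rises ran from 0.85 to 1.12. Of the 12, 11 had known sequence properties, and 7 of these passed with the correction. *Isg15* and *Fas*, at 1.23 and 0.93, had lower counts and are described below. *Ccne2*, the S-phase cyclin E2, went from 322 to 528 in set 2 and from 400 to 1100 in set 3 (1.08 ± 0.14, adjusted p = 0.00795; corrected 0.72, adjusted p = 0.00414), with untreated cells at 226 and luciferase siRNA at 466. *Tmem123*, a membrane receptor of the mucin type, rose by nearly the same in both sets, from 721 to 1345 and from 770 to 1502 (0.93 ± 0.10, adjusted p = 0.00175). Both genes had every SATS library above every control library. *Lsm5*, a subunit of the ring that binds U6 RNA, went from 138 to 280 and from 87.3 to 204, but its short, AT-rich transcript (757 bases, 33.9% GC) did not pass with the correction (0.43, adjusted p = 0.177). *Hmgn5*, a nucleosome binding protein, went from 71.7 to 164 and from 142 to 272, and *Cox6c*, a subunit of cytochrome c oxidase, from 851 to 1280 and from 419 to 927. Both passed with the correction (adjusted p = 0.0442 and 0.00514). *Nexn*, an actin binding protein, *Sh3bgrl* and *Hist3h2bb-ps*, a histone pseudogene, rose by 0.98, 0.85 and 0.90 and passed as well. The chemokine *Cxcl11*, at 70.9 and 26.2 with SCR and 85.7 and 89.6 with SATS siRNA, rose mainly in set 3 (0.27 in set 2 and 1.74 in set 3). *Gnpda2* and the G protein subunit *Gng5* rose by 0.88 and 0.85. With the correction *Cxcl11*, *Gnpda2* and *Gng5* were at 0.92, 0.70 and 0.55 and not called (adjusted p = 0.0683, 0.0626 and 0.0947), and *Gm6402* had no sequence properties to correct for.

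**Figure D4:**
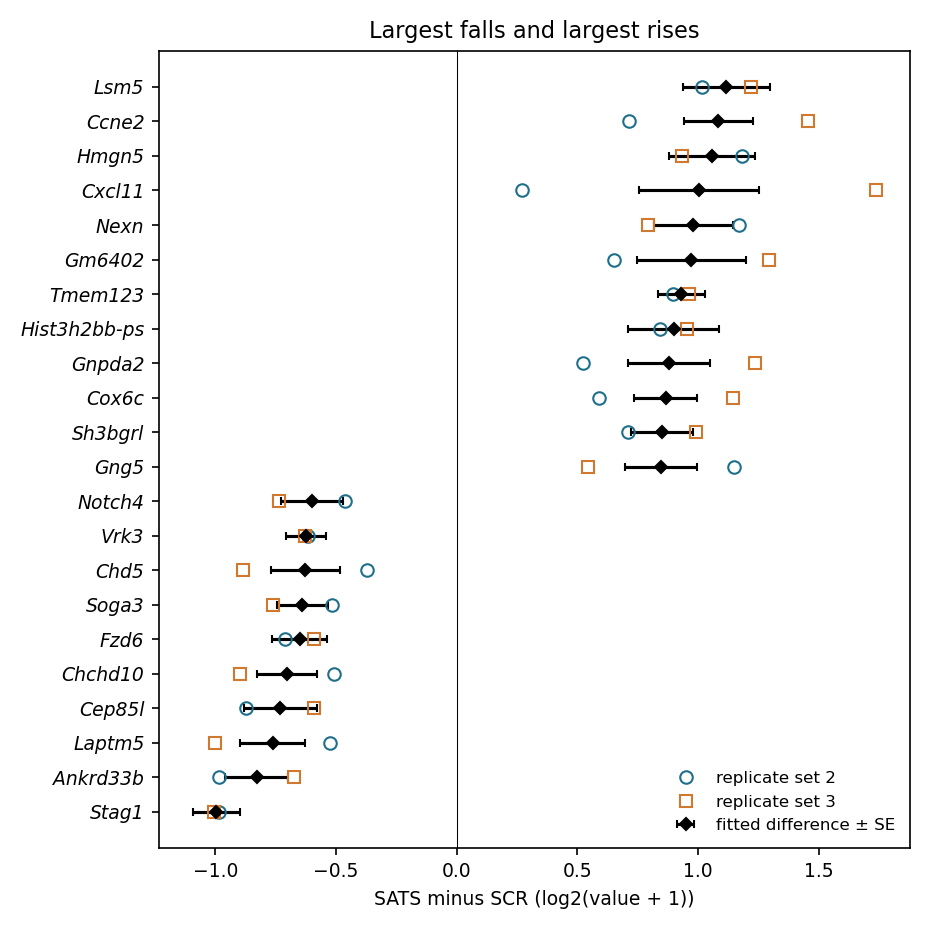
Difference between SATS and SCR (x axis, log2(value + 1)) for the 10 falls described and the 12 largest rises, with the difference in replicate set 2 (circles), in replicate set 3 (squares) and the fitted difference with its standard error (diamonds and bars). Genes were chosen with a mean normalised read count of at least 50 and on the same side of 0 in both sets. *Vrk3*, *Stag1* and *Tmem123* differ least between sets.

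Naive pluripotency factors were lower on balance, but few passed the test. Of 32 naive genes tested, 4 fell (*Tfcp2l1*, *Lifr*, *Tbx3* and *Zfp57*) and 1, *Dppa3*, rose (12.5% and 3.12%, against 0.746% and 1.9% of all genes). The median over the list was −0.21 (−0.17 in set 2 and −0.29 in set 3, against 0.00 over all genes). *Tfcp2l1*, a factor of the naive network downstream of LIF, went from 5401 to 3863 and from 3096 to 1928 (−0.58 ± 0.09, adjusted p = 0.0131). The LIF receptor gene *Lifr* went from 1886 to 1439 and from 1557 to 1036 (−0.49 ± 0.08, adjusted p = 0.0153; named after its values were seen). *Tbx3* went from 868 to 595 and from 252 to 179 (−0.52 ± 0.11, adjusted p = 0.0297), and was at −0.40 with the correction and not called (adjusted p = 0.0653), whereas *Tfcp2l1*, *Lifr* and *Zfp57* did. Untreated cells (5433 for *Tfcp2l1*, 1774 for *Lifr*) and luciferase siRNA (2906 and 1635) were close to the SCR library of their set. *Dppa3*, a maternal-effect factor of naive cells and the germline, went the other way, from 262 to 403 and from 159 to 295 (0.75 ± 0.13, adjusted p = 0.0190).

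Other markers of the naive state did not pass. *Esrrb* was at 4255 and 2564 with SCR and at 3478 and 1837 with SATS siRNA (−0.39 ± 0.10, adjusted p = 0.0518), and *Klf4* differed by −0.41 ± 0.12 (adjusted p = 0.0946) and *Zfp42* by −0.17. *Nanog* was lower in set 2 (4069 and 3552) and higher in set 3 (2400 and 2748), with a fitted difference of 0.00 ± 0.10. The general pluripotency factors *Pou5f1*, *Sox2*, *Sall4* and *Dppa4* differed by 0.02, 0.06, −0.19 and 0.09, none called, and *Pou5f1*, *Sox2* and *Sall4* were at 2610 to 9193 in the SATS libraries. Over the 28 formative and primed genes tested the median was −0.03. Of these *Lefty1*, a Nodal antagonist, was the one that rose (0.48 ± 0.10, adjusted p = 0.0313; 311 to 387 and 1349 to 2120), while *Otx2*, *Fgf5* and *Dnmt3b* differed by 0.20, −0.11 and −0.11 (adjusted p = 0.308, 0.715 and 0.528).

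Of 18 target genes and feedback inhibitors of FGF and ERK signalling tested, 3 fell (16.7%, against 0.746% of all genes) and none rose. The other 15 did not pass, and the median was −0.15, or −0.07 with the correction. *Spry4*, a feedback inhibitor of receptor tyrosine kinases, went from 1704 to 1314 and from 2397 to 1611 (−0.47 ± 0.11, adjusted p = 0.0374). The cyclin *Ccnd1* went from 3412 to 2790 and from 3015 to 2144, and the ETS factor *Etv4* from 818 to 589 and from 631 to 524, falls of 0.39 and 0.37. *Ccnd1* and *Etv4* passed with the correction (adjusted p = 0.0461 for both) and *Spry4* did not (0.0799). For *Etv4* and *Spry4* both SATS libraries lay below every SCR, untreated and luciferase library, whereas *Ccnd1* with SATS siRNA in set 2 (2790) lay just above luciferase siRNA in set 3 (2725).

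Of 16 genes of DNA methylation and demethylation, 2 fell (12.5%, against 0.746% of all genes) and 13 lay below 0. *Tet1*, which oxidises 5-methylcytosine, went from 14522 to 11785 and from 15779 to 11474 (−0.38 ± 0.09, adjusted p = 0.0426). *Zfp57*, a zinc finger protein that protects imprints and is also on the naive and Zfp lists, went from 2276 to 1781 and from 1822 to 1329 (−0.40 ± 0.08, adjusted p = 0.0269). Both passed with the correction. Of 24 genes of heterochromatin and H3K9 methylation, *Cbx3* and *Hells* rose by 0.66 and 0.37 and *Ehmt1* fell by 0.32. The shares were 8.33% and 4.17%, against 1.9% and 0.746% of all genes. None of the 3 passed with the correction, nor did any of 25 Polycomb genes pass either test.

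The largest group of rises was made of ribosomal protein genes. Of 84 genes of cytosolic ribosomal proteins, 17 were called higher (20.2%, against 1.9% of all genes) and none lower, and 81 lay above 0. Their median was 0.26, with 0.15 in set 2 and 0.36 in set 3. *Rpl22* went from 3070 to 4387 and from 2259 to 4069 (0.68 ± 0.10, adjusted p = 0.0131), *Rpl36a* from 2120 to 3029 and from 1466 to 3002, and *Rpl39* from 1751 to 2384 and from 1748 to 3605. Transcripts of this group are short, with a median of 1076 bases. With the correction, 8 of the 84 were called higher, these 3 among them, and the median was 0.11. Reads of ribosomal protein genes can be shared with their many pseudogenes, so single values are uncertain.

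Other groups of short housekeeping transcripts showed the same sign with fewer calls. Of 52 nuclear genes of the respiratory chain 5 rose (*Cox6c*, *Ndufa5*, *Uqcrb*, *Ndufa1* and *Ndufa4*; 9.62%, against 1.9% of all genes), with a median of 0.17, and *Cox6c* alone passed with the correction. *Ndufa5* went from 135 to 252 and from 109 to 185 (0.82 ± 0.17, adjusted p = 0.0273; corrected 0.0643). Of 76 mitochondrial ribosomal protein genes 3 rose (*Mrpl42*, *Mrpl33* and *Mrps36*), of 31 proteasome genes 2 (*Psmc6* and *Psma4*), and of 64 histone genes 3 (*Hist1h2ab*, *Hist1h3b* and *Hist1h2bb*), shares of 3.95%, 6.45% and 4.69%, with medians of 0.13, 0.15 and 0.25 that shrank to 0.01, 0.02 and 0.07 with the correction. Of these 8 genes *Mrpl33* passed with the correction (adjusted p = 0.0418). *Rmrp*, the RNA of RNase MRP, went from 53793 to 76325 and from 30188 to 52386 (0.65 ± 0.14, adjusted p = 0.0333; corrected 0.0260).

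**Figure D5:**
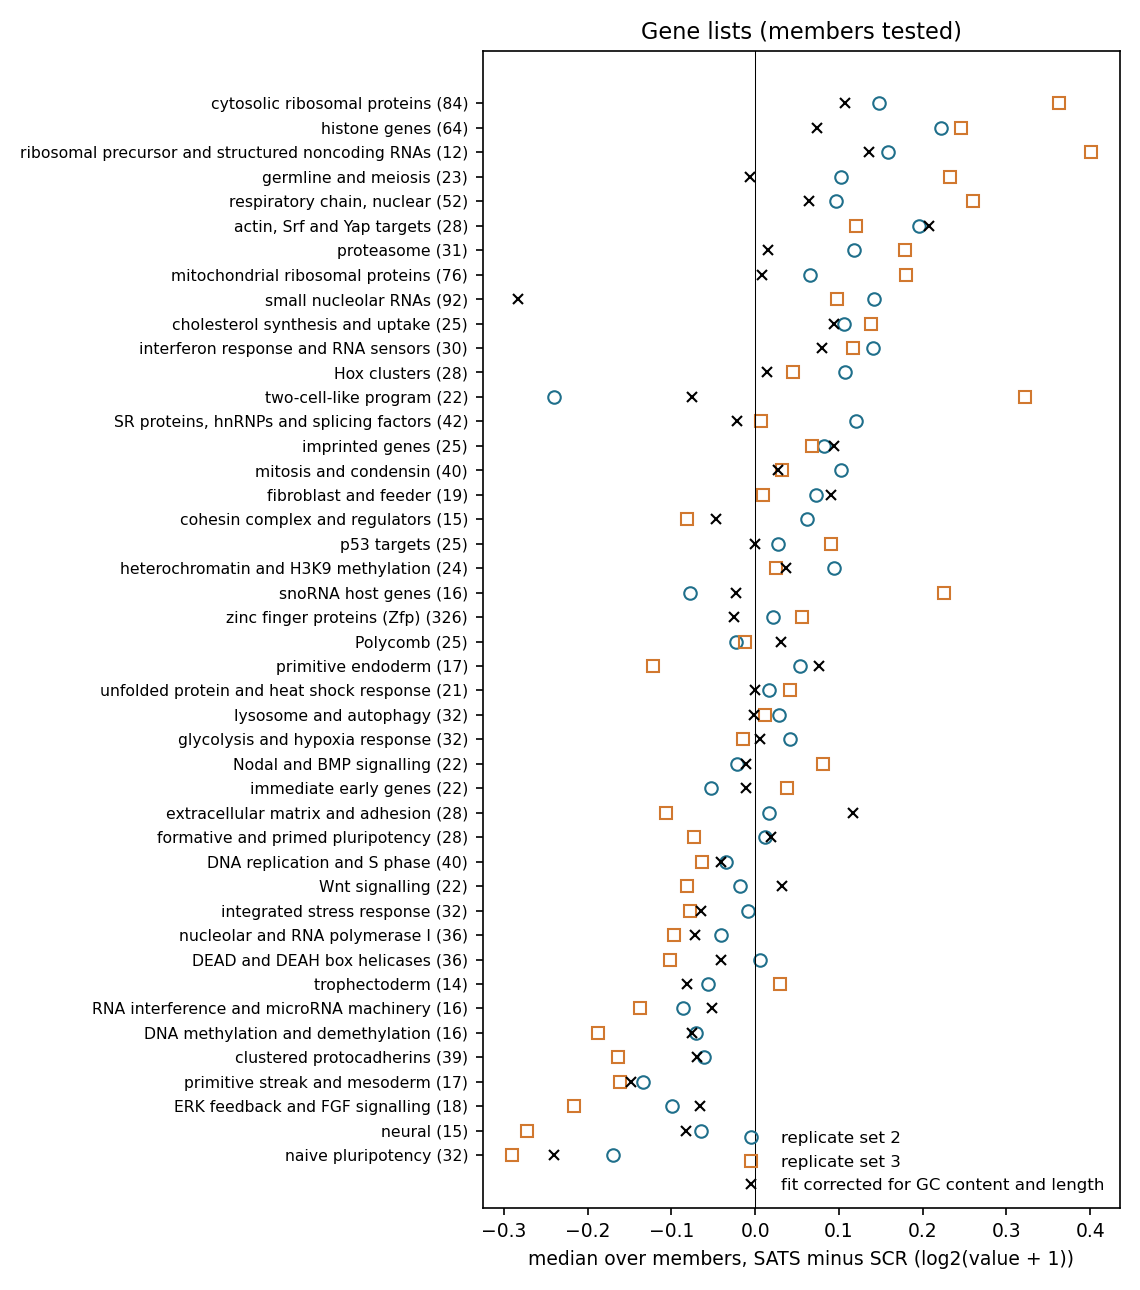
Median difference between SATS and SCR (x axis, log2(value + 1)) over the tested members of each gene list (number in brackets), in replicate set 2 (circles) and replicate set 3 (squares), and in the fit corrected for GC content and transcript length (crosses). Naive pluripotency genes have the lowest fitted median (−0.21), and ribosomal protein genes the highest (0.26), which the correction takes to 0.11.

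Some genes of the actin cytoskeleton and a pair of keratin genes rose with SATS siRNA. Of 28 actin, Srf and Yap targets, 3 rose (*Anxa1*, *Tpm2* and *Myl9*; 10.7%, against 1.9% of all genes), none fell and 23 lay above 0, with a median of 0.15 that was 0.21 with the correction. Smooth muscle actin *Acta2* went from 3956 to 6951 and from 649 to 1067 (0.76 ± 0.08, adjusted p = 0.00197; corrected 0.71, adjusted p = 0.00261). *Tpm2*, a tropomyosin, went from 1215 to 2027 and from 533 to 674 (0.54 ± 0.09, adjusted p = 0.0190; corrected 0.0101). *Anxa1* and *Myl9* did not pass with the correction (adjusted p = 0.126 and 0.108). *Anxa1* with SATS siRNA in set 2 (1320) lay below untreated cells of that set (1412). *Myl9* did not differ from the mean of SP, 3p and 5p by the test (0.08, adjusted p = 0.576). *Acta2* was at 5701 in untreated cells, above the SCR library of that set and below the SATS library, and at 392 with luciferase siRNA. The keratins *Krt8* (13991 to 18476 and 4369 to 6996) and *Krt7* (407 to 567 and 82.9 to 145), both type II keratins of simple epithelia, rose by 0.54 and 0.64, and both passed with the correction. The other 12 trophectoderm genes tested were not called, and over the 14 the median was −0.08, with 6 above 0. *Cdx2* was at 61.7 and 55.5 with SCR and 55.0 and 51.3 with SATS siRNA, and *Krt18*, the type I keratin that pairs with *Krt8*, differed by 0.33 ± 0.12 (adjusted p = 0.144). *Acta2* is also on the list of 19 fibroblast genes tested, of which no other was called, and the 7 defining fibroblast or feeder markers summed to 2862 and 551 with SCR and to 3673 and 536 with SATS siRNA in sets 2 and 3, so that they were higher in set 2 alone. *Col1a1*, which makes up most of that sum, differed by 0.19 ± 0.16. The part of other cell types in these rises was not tested further.

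Responses to double-stranded RNA were looked at because the SATS siRNA is an esiRNA. Of 30 interferon response and RNA sensor genes, 2 rose (6.67%, against 1.9% of all genes) and none fell, with a median of 0.11. *Isg15*, a ubiquitin-like protein induced by interferon, went from 10.1 to 24.3 and from 4.36 to 11.9 (1.23 ± 0.30, adjusted p = 0.0465), on 11 to 69 reads per library. *B2m*, the light chain of MHC class I, rose by 0.49 ± 0.09 (409 to 568 and 209 to 298). With the correction neither was called: *Isg15* was at 1.04, close to its uncorrected value (adjusted p = 0.134), and *B2m* at 0.06 (adjusted p = 0.812). With luciferase siRNA, an esiRNA too, *Isg15* was at 5.56 and *B2m* at 228 in set 3, against 4.36 and 209 with SCR, and in untreated cells of set 2 they were at 15.3 and 375. None of 16 genes of the RNA interference machinery was called, and the argonaute genes *Ago2* and *Ago1* differed by −0.35 and −0.33 (adjusted p = 0.0759 and 0.113).

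Of 25 p53 targets, *Ccng1* and *Fas* rose and *Eda2r*, a receptor of the tumour necrosis factor family, fell. The shares were 8% and 4%, against 1.9% and 0.746% of all genes. *Eda2r* went from 1506 to 963 and from 1495 to 1111 (−0.54 ± 0.09, adjusted p = 0.0159; corrected −0.70, adjusted p = 1.94e-04), with untreated cells at 1348 and luciferase siRNA at 1740. *Fas*, on 21 to 96 reads, and *Ccng1* rose by 0.93 and 0.44, and were at 0.69 and 0.24 with the correction, where they did not pass (adjusted p = 0.154 and 0.0757). The adhesion molecule *Cdh1*, E-cadherin, went from 10202 to 8305 and from 10551 to 7722 (−0.37 ± 0.08, adjusted p = 0.0297, or 0.0313 with the correction). It was the 1 call among 28 genes of extracellular matrix and adhesion (3.57%, against 0.746% of all genes). Of 25 genes of cholesterol synthesis and uptake, *Msmo1* and *Cyp51* rose by 0.49 and 0.36 (8%, against 1.9% of all genes). Of 32 glycolysis and hypoxia response genes, the kinase gene *Pdk1* and *Ndrg1* fell by 0.34 and 0.45 (6.25%, against 0.746% of all genes). Over those 32 the median was 0.007, and 17 lay above 0. *Msmo1*, *Cyp51* and *Pdk1* passed with the correction.

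The heat shock genes *Hsp90aa1* and *Hspe1* rose by 0.54 and 0.45, 2 of 21 in their list (9.52%, against 1.9% of all genes). *Ier5* rose by 0.42, the 1 call among 22 immediate early genes (4.55%). Of those 22, 11 lay above 0, and the median was −0.008. *Hsp90aa1* and *Ier5* passed with the correction. Of 40 mitosis and condensin genes 4 rose, which is 10% of the list: *Kif20b*, *Hmmr*, *Ncapg* and *Smc2* rose by 0.31 to 0.39. None of the 4 passed with the correction, where *Ncapg* turned to −0.07. *Ccne2* was the 1 call among 40 genes of DNA replication and S phase (2.5%, near the 1.9% of all genes called higher). Of 326 Zfp zinc finger genes 7 rose (2.15%, near the 1.9% of all genes), with *Zfp97*, *Zfp40* and *Zfp960* at 0.70, 0.68 and 0.61, and 2 fell, *Zfp57* and *Zfp423*. With the correction 2 members were called higher and 7 lower, mostly other genes, while *Zfp97*, *Zfp40* and *Zfp960* were at 0.36, 0.39 and 0.28 and not called. In the remaining lists *Lamp2* and *Ctsl* (2 of 32 lysosome genes, 6.25%) and *Srsf3* and *Clk1* (2 of 42 splicing genes, 4.76%) rose. So did *Sycp3* (1 of 23 meiosis genes, 4.35%) and *Nop10* (1 of 36 nucleolar and RNA polymerase I genes, 2.78%, near the 1.9% of all genes). *Polr1b*, 1 of the same 36 genes, fell (2.78%, against 0.746% of all genes). None of these 7 passed with the correction.

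No call was made among 22 genes of the two-cell-like program, 17 of primitive endoderm, 17 of primitive streak and mesoderm, 15 neural, 32 integrated stress response, 22 Wnt, 28 Hox, 39 clustered protocadherin and 25 imprinted genes. The Wnt receptor gene *Fzd6*, described above among the largest falls, is not on the Wnt list. With the correction, the imprinted genes *H19* and *Gnas* were called higher (0.42 and 0.27, adjusted p = 0.0260 and 0.0465). *Zscan4c*, a marker of two-cell-like cells, was lower in set 2 (85.6 with SCR and 78.3 with SATS siRNA) and higher in set 3 (7.54 and 17.0), and the median of that list was −0.24 in set 2 and 0.32 in set 3. *Rn45s*, the ribosomal precursor left after depletion, took 14.7% and 23.5% of the reads in the SATS libraries and 16.4% and 21.9% in the SCR libraries, with a fitted difference of 0.00 ± 0.32.

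The question of what sets the SATS knockdown apart from the other siRNAs to the same gene was put to the same fit, with SATS against the mean of SP, 3p and 5p, a contrast that leaves SCR out. SATS was higher in 1016 genes and lower in 528 (6.16% and 3.2%, 9.36% together), and without the SATS library of set 3 the counts were 14 and 7. Against SP, 3p and 5p singly, 1554, 505 and 1059 genes differed. *Axl*, a receptor tyrosine kinase, had the largest difference after *Stag1* itself (1.28 ± 0.11, adjusted p = 4.36e-05), with 1414 and 418 with SATS siRNA, 1028 and 316 with SCR and 489 to 708 and 137 to 189 with the other siRNAs. Against SCR the difference was 0.43 (adjusted p = 0.0884). *Serpinb9*, an inhibitor of granzyme B, and *F3*, tissue factor, were higher than with the other siRNAs by 1.25 ± 0.14 and 1.09 ± 0.09, and were also called higher than SCR (0.82 and 0.83, adjusted p = 0.0269 and 0.00795). *Sycp3*, a protein of the synaptonemal complex, differed by 0.99 ± 0.14. It was at 71.6 and 90.7 with 5p, and SATS did not differ from SP or 3p by the test (adjusted p = 0.242 and 0.249).

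Lower with SATS siRNA than with the other 3 were *Fzd6* (−0.88 ± 0.09), *Ago1* (−0.79 ± 0.09), *Csnk1g1* (−0.79 ± 0.09), *Nkx2-9* (−0.78 ± 0.13) and *Synm* (−0.69 ± 0.11). *Ago1*, an argonaute that binds small RNAs, was at 1200 and 1557 with SATS siRNA and at 1506 and 1969 with SCR, but at 1812 to 1978 and 2739 to 3477 with the other siRNAs and at 2596 with luciferase siRNA. *Nkx2-9* (33.5 and 31.4 with SATS siRNA) and *Synm* (142 and 174) did not differ from SCR by the test (adjusted p = 0.678 and 0.432). *Nkx2-9* was at 52.9 to 63.2 with the other 3 siRNAs, and *Synm* at 231 to 344 with SP and 3p. Of the naive genes that fell against SCR, *Tfcp2l1*, *Tbx3* and *Lifr* did not differ from the mean of the other siRNAs by the test (−0.18, −0.06 and −0.11, adjusted p = 0.129, 0.765 and 0.330). *Acta2*, *Krt7* and *Krt8* were higher with SATS siRNA than with the others (0.80, 0.73 and 0.69, adjusted p = 5.65e-05, 0.00115 and 0.00241).

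*Csnk1g1*, the kinase casein kinase 1 gamma 1, carries the run of 17 bases printed above. It went from 1249 to 876 in set 2 and from 1094 to 684 in set 3 (−0.59 ± 0.11, adjusted p = 0.0219; corrected −0.56, adjusted p = 0.00419), and every other library of sets 2 and 3 was at 1094 or more. In all, 32 genes other than *Stag1* hold a run of at least 16 bases of the SATS exon in a transcript, on either strand, and the longest run has 20 bases. Of the 25 tested, 1 was called lower (*Csnk1g1*), 1 higher (*Hells*), 18 lay below 0 and the median difference was −0.07. Over all 16490 genes, 0.746% were called lower and 1.9% higher, 8136 lay above 0 and the median was −0.004. The run in *Csnk1g1* has the orientation of the SATS exon, and that in *Hells* the opposite one. *Dclk2*, *Ptpn1* and *Dnajc27* differed by −0.46, −0.32 and −0.31 and did not pass the test (adjusted p = 0.0823, 0.0518 and 0.111). *Mast1*, with a run of 19 bases, was at 59.6 and 57.9 with SCR and at 53.3 and 45.5 with SATS siRNA (adjusted p = 0.474), and *H2afx*, with 18 bases, differed by 0.12 (adjusted p = 0.557). A shared run is a match of letters and not a measured siRNA target.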

How the data were processed

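RNA-seq was analysed in 12 libraries of replicate sets 2 and 3 (32137666 to 45660840 reads on genes). The authors used HISAT2 (mm10) for alignment and featureCounts for gene counts, which they divided by DESeq2 size factors (version 1.14.1 in their processing notes). The deposited values are therefore a normalised signal, here called normalised read count, and not counts. Strand settings are not given in the sources used here. All values were whole multiples of a step particular to each library (100% within 0.01 of a read), which gave back whole reads. 1 read is worth 0.353 to 0.479, and depth bounds counting error only.

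The log2(value + 1) of 10 libraries (SCR, SP, 3p, 5p and SATS) was fitted with limma 3.58.1 (lmFit, eBayes with trend) in R 4.3.3, with the replicate set as a block, keeping genes whose values summed to 10 or more. For low genes this scale makes a change look smaller than it is. Adjusted p-values are Benjamini-Hochberg over all 16490 genes, with 0.05 as threshold. The block was used because each set has its own SCR library. Deviations of same-set libraries from their group means correlated at 0.81 to 0.93, and the set numbers come from the labels. The study speaks of independent replicate libraries, but no source used here names separate cultures for these sets, so p-values measure the spread between these libraries, which may be technical.

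Alternatives were edgeR 4.0.16 and DESeq2 1.42.0 on whole reads, TMM normalisation, other pseudocounts and filters, other controls, leaving out each library, no block, and, added after seeing the data, natural splines (5 df) of GC content and log2 length of the longest GENCODE vM21 transcript, regressed out of each library (16341 genes with both). The fits were tested on simulated data, where the blocked fits recovered the changed genes with few false calls. The simulated difference between sets was the same in every group, which is what the block assumes. The recovery therefore does not show how well the block suits the real data. A GC trend was then added to the simulated SATS libraries alone. The uncorrected fits, limma and edgeR alike, made many false calls and the corrected fit few. The correction removes a trend of the kind added, so this outcome was set in advance. It does not show how many calls in the real data are false. Named genes were those called, changed the same way in both sets, with a mean value of at least 50 (12 largest each way, and 5 each way against the other siRNAs; 2 of the falls are not reported here and were not replaced), *Stag1*, *Stag2*, markers, and up to 3 called members of each list. Other genes were chosen after their values were seen: the further members of a list, the neighbours of *Stag1* and the genes with a shared run. The comparison, the gene lists and the tests were chosen with earlier results of these data known. Set 1, the 2i libraries and the separate table of set 1 were not used here.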

Additional observations from a re-analysis of the deposited data

How the results depend on the processing

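*Stag1* stayed called in 20 of 22 alternatives, at −1.23 to −0.88. Without the replicate block it was not, at −0.996 by limma (adjusted p = 0.633) and −0.99 by edgeR (adjusted p = 0.603). For genes called higher than SCR (313) the alternatives gave 657 with DESeq2, 111 with GC content and length corrected, 105 with GC content corrected, 492 with length corrected, 1148 with luciferase and untreated cells added to the control, 772 with the 4 SATS and SCR libraries alone, 0 without the block in limma and in edgeR, 2 to 611 when a library was left out, and 227, 3, 6 and 10 when SATS of set 2, SATS of set 3, SCR of set 2 or SCR of set 3 was left out of the corrected fit. For genes called lower (123) they gave 192 with DESeq2, 291 with length corrected, 637 with the wider control, 280 with the 4 libraries alone, 0 without the block in both tools, 1 to 111 when a library was left out, and 125, 2, 7 and 4 in the same order for the corrected fit. The other alternatives kept both counts within 1.5 times: TMM, edgeR with the block, other pseudocounts, a mean value of at least 50 (315 and 130) and no filter (215 and 90, of 18496 genes), and for genes called lower also both GC corrections. Against the mean of the other siRNAs (1016 higher, 528 lower) the correction gave 516 and 486, no block gave 1 and 0 in both tools, and leaving out a SATS library gave 14 to 891 and 7 to 288. With a library left out, its group has 1 library, which is assumed to vary like the others. The cause of these differences was not tested.

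Of the called genes named, 3 turned sign in the corrected fits. *Ncapg* was at −0.0724 with GC content and length corrected and −0.0720 with GC content corrected, −0.16 when SATS of set 2 was also left out, −0.14 without SCR of set 2 and −0.0041 without SCR of set 3. *B2m* was at −0.10 without SATS of set 2, and *Sycp3* at −0.0527 without SATS of set 3 and −0.0119 without SCR of set 3. Replicates of 1 line and 2 libraries per group limit every count above.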

Other observations

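Further called genes that are on none of the lists above were chosen after their values were seen, so they say nothing about how many genes of their kind moved. The guanylate-binding proteins *Gbp2b* (1110 to 1611 in set 2 and 597 to 928 in set 3) and *Gbp3* (104 to 149 and 41.3 to 82.7) were called higher with SATS siRNA (0.59 ± 0.10 and 0.75 ± 0.15, adjusted p = 0.0190 and 0.0220). So were *Ifngr2*, a chain of the interferon gamma receptor (157 to 236 and 101 to 164), and *Irak2*, a kinase of Toll-like receptor signalling (199 to 297 and 102 to 161). All 4 passed with GC content and length corrected (adjusted p = 0.0240, 0.0271, 0.00791 and 0.00755), unlike *Isg15* and *B2m*. The contractile genes *Acta1* (2233 to 3149 and 462 to 803) and *Myl6* (3005 to 4582 and 1581 to 3008) also rose, by 0.65 ± 0.10 and 0.77 ± 0.12 (adjusted p = 0.0131 and 0.0134), and passed with the correction.

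Among falls outside the lists, *Ptpn11*, the phosphatase SHP2 that links receptor tyrosine kinases to ERK, went from 2819 to 2009 and from 2421 to 1715 (−0.49 ± 0.07, adjusted p = 0.0130). *Podxl*, a sialomucin of the surface of pluripotent cells, went from 1631 to 1132 and from 1634 to 1112 (−0.54 ± 0.07, adjusted p = 0.00815). Both passed with the correction (adjusted p = 0.0111 and 0.00375). These values come from the same 4 libraries as the report and share its limits.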
